A study of Homo sapiens with 12 samples.

Results

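The MYC, MAX and MXD network is a set of transcription factors that compete for one partner. MYC, MYCN and MYCL are the activating members, MAX is the partner they need, and MXD1, MXD3, MXD4, MXI1 and MNT are antagonists that bind the same partner. Members were taken as every probe set, a group of short probes for one transcript, that the platform annotation ties to a single one of 10 symbols: these 9 and MLX, a MAX-like partner. The rule found 31 of the 54613 probe sets tested, for 9 of the 19775 genes. The activators had 13 sets, the partners 11 and the antagonists 7. The sets of MXD4 carry a second symbol as well, so MXD4 was not analysed here.

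TC71 and TC32 are human Ewing sarcoma lines long kept in culture, from a tumour type driven by the fusion protein EWSR1-FLI1. Cells of each line received 100 nM mithramycin or solvent as control for 6 h, and mithramycin is an antibiotic with affinity for GC-rich DNA. The 4 groups were TC71 with mithramycin, TC71 control, TC32 with mithramycin and TC32 control, with 3 arrays each that the labels call biological replicates. Expression was measured on 12 one-colour oligonucleotide arrays, and each value is a log2 signal summarised per probe set, so 1 unit is a doubling.

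MYC proteins form pairs with MAX through a helix-loop-helix and leucine zipper, bind the E-box in DNA and recruit acetyltransferases, which raises transcription of genes for growth and ribosome production. MXD proteins, MXI1 and MNT pair with MAX on the same sites and recruit the SIN3 corepressor with its histone deacetylases. MLX pairs with MLXIP (MondoA), MLXIPL (ChREBP), MXD1, MXD4 and MNT, and so links the network to glucose sensing. MYC mRNA and protein are short-lived, and MYC is among the genes that many tumours, Ewing sarcoma included, express at high levels.

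The promoters are shown because mithramycin binds GC-rich DNA and because the network itself binds the E-box. They are RefSeq sequences on assembly GRCh38.p14, covering 250 bases before the gene start, for the 4 members with 1 annotated start in the table and a probe set called in both lines below: MLX, MXD1, MXD3 and MNT. Capitals mark the E-box CACGTG and the GC box GGGCGG, the core of an Sp1-type site, on either strand, so that its reverse complement CCGCCC is in capitals too. The MLX window is chr17:42566850-42567099 on the plus strand, the MXD1 window chr2:69914859-69915108 on the plus strand, the MXD3 window chr5:177312753-177313002 on the minus strand and the MNT window chr17:2401061-2401310 on the minus strand.
MLX: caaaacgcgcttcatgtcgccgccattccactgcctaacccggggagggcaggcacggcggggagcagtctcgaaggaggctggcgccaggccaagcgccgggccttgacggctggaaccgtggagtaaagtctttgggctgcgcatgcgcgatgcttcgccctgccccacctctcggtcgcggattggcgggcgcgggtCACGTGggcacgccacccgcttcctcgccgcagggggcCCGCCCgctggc
MXD1: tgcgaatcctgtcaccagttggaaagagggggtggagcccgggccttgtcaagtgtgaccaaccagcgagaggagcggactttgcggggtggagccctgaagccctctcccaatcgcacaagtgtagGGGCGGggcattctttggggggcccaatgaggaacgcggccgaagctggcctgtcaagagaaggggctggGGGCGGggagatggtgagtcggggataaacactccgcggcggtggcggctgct
MXD3: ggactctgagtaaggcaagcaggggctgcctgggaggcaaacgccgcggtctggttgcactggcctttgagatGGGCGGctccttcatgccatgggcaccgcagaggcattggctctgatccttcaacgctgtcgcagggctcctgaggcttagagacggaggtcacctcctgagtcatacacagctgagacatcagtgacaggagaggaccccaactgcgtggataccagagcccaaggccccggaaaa
MNT: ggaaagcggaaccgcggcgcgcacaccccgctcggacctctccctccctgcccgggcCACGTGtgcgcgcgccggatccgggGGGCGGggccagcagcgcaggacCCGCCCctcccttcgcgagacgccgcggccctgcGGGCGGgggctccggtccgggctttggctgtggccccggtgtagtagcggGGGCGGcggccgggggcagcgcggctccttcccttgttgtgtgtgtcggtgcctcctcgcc
The MLX window held 1 E-box and 1 GC box at 71.2% GC. The MNT window held 1 E-box and 4 GC boxes at 78.0% GC, and those of MXD1 (64.4% GC) and MXD3 (60.4% GC) held 2 and 1 GC boxes and no E-box. The promoter table had 12 windows for 9 of the members, MXD4 included, and no window for MYC. Of these windows, 3 held an E-box, 11 held a GC box and 10 were above 58.0% GC, the median of all 35116 windows in the table. Over all windows of this length 6.34% held an E-box, 42.6% held a GC box and 3.54% held both. The motifs found in the 12 windows did not overlap one another. With a GC box in 11 of the 12 windows, its presence could not separate genes that rose from genes that fell, and a link was not tested. A match is a string of letters and not a measured site.

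Log2 fold changes below are mithramycin minus control unless stated, each ± the model's standard error, from 3 arrays per group. Adjusted p-values are from limma with Benjamini-Hochberg adjustment over all 54613 sets, and a set is said to rise, fall or differ where the adjusted p is under 0.05. With the drug, 28.2% of all probe sets passed this test in TC71 and 36.3% in TC32. Of the 31 network sets, 3 rose and 5 fell in TC71, and 3 rose and 7 fell in TC32, which is near that background. Of the 10 network sets with a mean signal of at least 6, 1 rose and 5 fell in TC71, where 49.7% of all sets at that level were called (24.3% higher and 25.4% lower), and 1 rose and 6 fell in TC32, where 59.5% were (28.2% higher and 31.3% lower). The median change of the network sets was 0.06 in TC71 and 0.04 in TC32, beside 0.05 and 0.06 over all sets. Averaged over both lines, 7 network sets rose and 8 fell, where 45.4% of all sets were called, 26.4% higher and 19% lower. The split in TC71 moved with the centring of the arrays. It was 1 risen and 8 fallen when each array was centred on housekeeping genes, and 7 risen and 1 fallen when centred on spiked hybridization controls. For the mean of both effects, housekeeping centring gave 3 risen and 11 fallen. In TC32 both centrings gave 3 risen, with 8 fallen for housekeeping genes and 7 for hybridization controls.

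By role, the activators counted 0 sets that rose and 1 that fell in TC71, and 0 and 2 in TC32, with a median of 0.06 in each line. Only 1 of the 13 activator sets, that of MYC, had a mean of at least 6. The partners counted 0 that rose and 3 that fell in TC71, and 0 and 4 in TC32, with medians of 0.05 and -0.11. In the mean of both effects 3 activator sets rose and 2 fell, beside 0 and 4 partner sets and 4 and 2 antagonist sets. The antagonists counted 3 that rose and 1 that fell in each line, with a median of 0.33 in TC71 and 0.12 in TC32. Among the 3 antagonist sets with a mean of at least 6, 1 rose and 1 fell in each line, with a median of -0.16 in TC71 and -0.09 in TC32. At the brightest set of each antagonist gene 1 rose and 1 fell in TC71 (median 0.09), and 2 rose and 1 fell in TC32 (median 0.27). In the direction of a rise 14.5% of all sets were called in TC71 and 19.4% in TC32, and in the direction of a fall 13.7% and 16.9%. The antagonists did not move as one group, since MNT had a falling set in both lines and the change of MXI1 was not called in either.

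**Figure D1:**
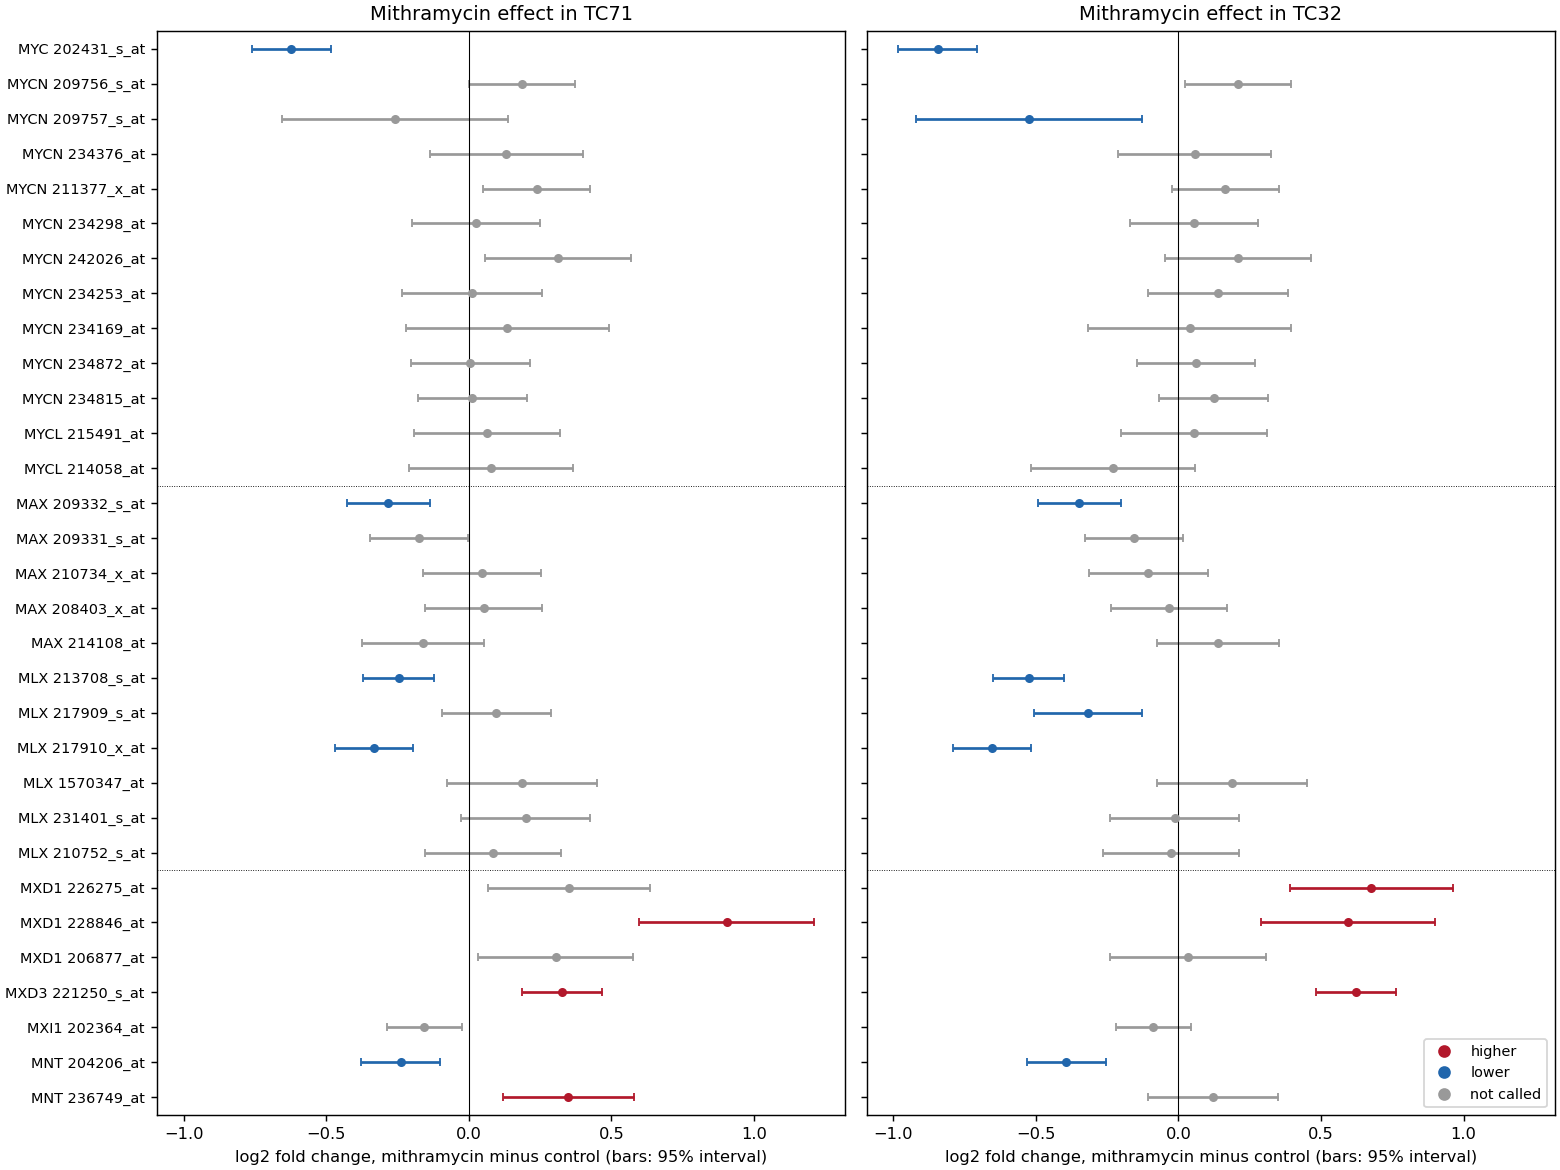
Mithramycin effects on the 31 probe sets of the network in TC71 (left) and TC32 (right). Points are log2 fold changes, mithramycin minus control, bars are 95% intervals of the model, red sets rose, blue sets fell and grey sets were not called; dotted lines part the activators, partners and antagonists. MYC fell in both panels, and MXD1 (228846_at) and MXD3 rose in both.

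MYC was the brightest member and fell with the drug in both lines. Its probe set 202431_s_at read 10.79, 10.72 and 10.68 in TC71 with mithramycin, against 11.25, 11.37 and 11.43 in TC71 control. In TC32 it read 9.20, 9.22 and 9.19 with mithramycin, against 10.06, 10.05 and 10.04 in control. All drug arrays lay below all control arrays of the same line, and 45.1% of all sets in TC71 and 44.7% in TC32 had groups that did not overlap. The change was -0.62 ± 0.06 in TC71 (adjusted p = 8.17e-06, 0.65-fold) and -0.84 ± 0.06 in TC32 (adjusted p = 3.53e-07, 0.557-fold). In these bulk samples, fewer cells with the transcript and less of it per cell cannot be told apart.

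TC71 started from the higher MYC level. TC71 control exceeded TC32 control by 1.30 ± 0.06 (adjusted p = 1.53e-09, 2.46-fold), and TC71 with mithramycin exceeded TC32 with mithramycin by 1.52 ± 0.06 (adjusted p = 3.75e-10, 2.87-fold). TC71 cells under the drug therefore still read above every TC32 control array. The TC71 effect minus the TC32 effect was 0.22, with a 95% interval of 0.03 to 0.42 and an adjusted p of 0.196, so a smaller fall in TC71 was not called. The order of the 4 groups was TC71 control, TC71 with mithramycin, TC32 control and TC32 with mithramycin from high to low, with no overlap between neighbours.

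**Figure D2:**
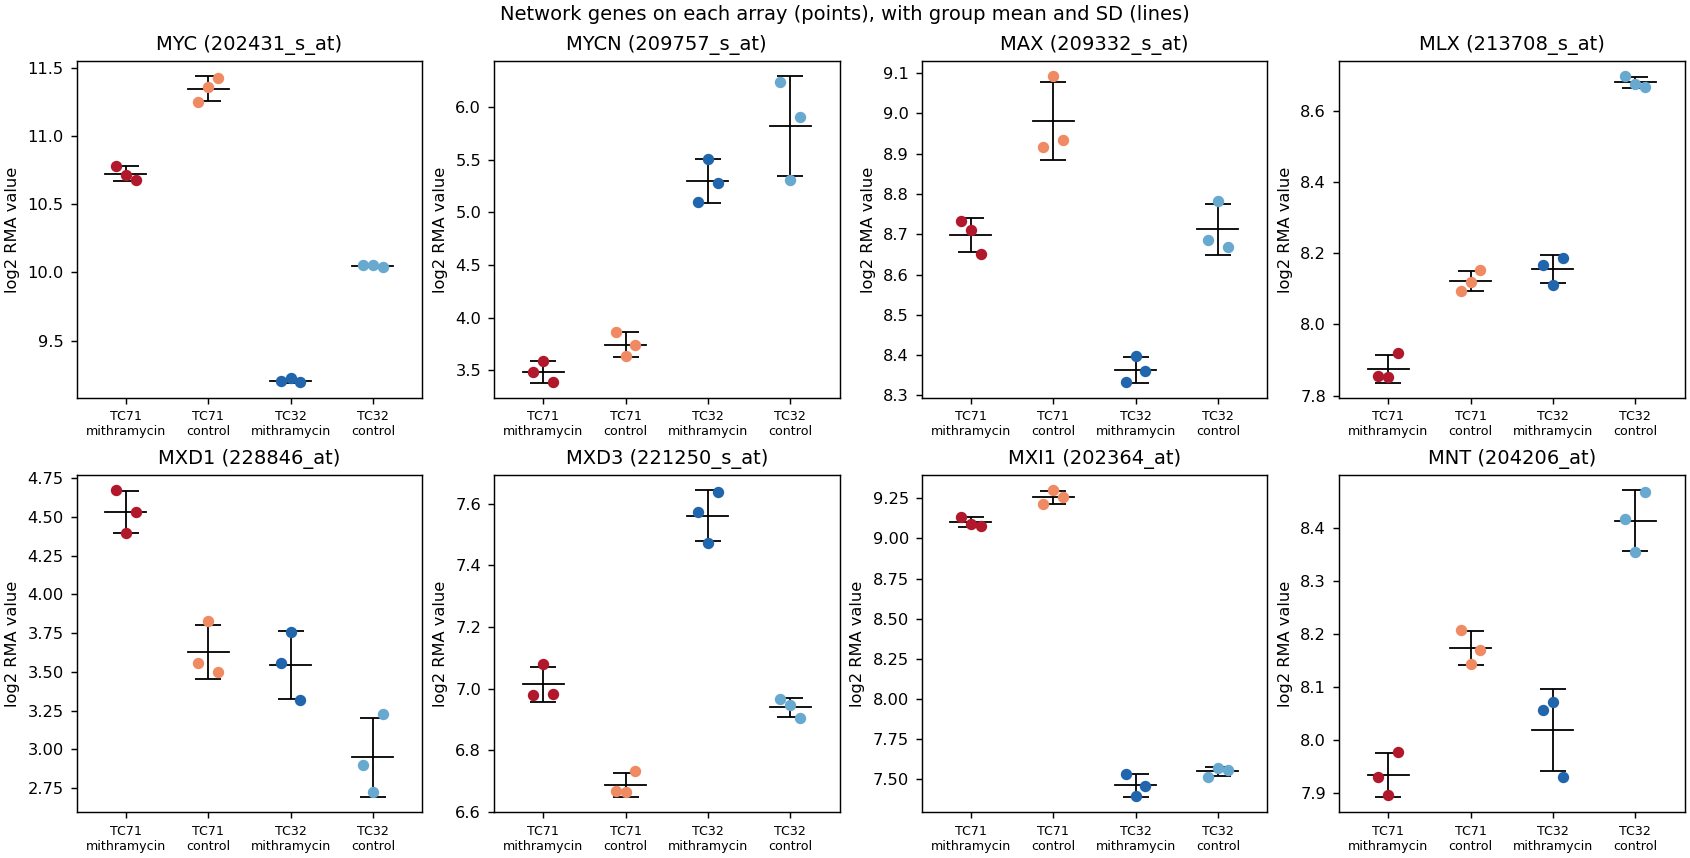
Log2 signals of 8 network probe sets on every array. Each is the brightest set of its gene, except for MYCN (209757_s_at) and MXD1 (228846_at), where a dimmer set is shown. Points are arrays in the order TC71 with mithramycin, TC71 control, TC32 with mithramycin and TC32 control, and lines give the group mean and SD (n = 3); axes differ between panels and do not start at 0. MYC drug arrays sit below the controls of their own line, and MXI1 separates the lines by far more than the treatments.

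MYCN, the family member best known from neuroblastoma, was dim and its sets did not run one way. Of its 10 sets, 7 lay below the median of the array on every array, with values between 1.83 and 4.26, and 5 of the 10 stem from one sequence record. Array medians ranged between 4.38 and 4.47, so the signal of such sets is weak and the size of a change in it is uncertain. The set 209757_s_at read 3.49, 3.59 and 3.39 in TC71 with mithramycin, against 3.87, 3.63 and 3.74 in TC71 control. The TC32 arrays gave 5.09, 5.51 and 5.28 with mithramycin, against 6.24, 5.31 and 5.91 in control.

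The groups of this MYCN set did not overlap in TC71 and overlapped in TC32. Its change was -0.26 ± 0.18 in TC71 (adjusted p = 0.336) and -0.52 ± 0.18 in TC32 (adjusted p = 0.0397). The TC32 call was lost without TC32 control replicate 1, at -0.31 and an adjusted p of 0.166, and in 9 alternative analyses in all. Among these were the analyses without TC32 mithramycin replicate 1 or 3, TC32 control replicate 3, TC71 mithramycin replicate 1 or TC71 control replicate 3 (adjusted p = 0.0509 to 0.138). The line difference of this set was plainer. The set was lower in TC71 than in TC32 by -2.07 ± 0.18 in control (adjusted p = 5.52e-07) and by -1.81 ± 0.18 with mithramycin (adjusted p = 2.27e-06). No other MYCN set was called between the lines in either condition. The brightest, 209756_s_at, stood at -0.03 in control (adjusted p = 0.800) and -0.06 with mithramycin (adjusted p = 0.644). The other 9 sets showed no called drug change in either line. The brightest of them, 209756_s_at, changed by 0.19 ± 0.09 in TC71 (adjusted p = 0.129) and 0.21 ± 0.09 in TC32 (adjusted p = 0.0738), opposite in sign to 209757_s_at. In the mean of both effects 3 MYCN sets rose, 209756_s_at by 0.20 (adjusted p = 0.0173), and 209757_s_at fell by -0.39 (adjusted p = 0.0255). None of the 3 rises was called under housekeeping centring (0.05, 0.05 and 0.11). The fall was lost with the beta-actin covariate (adjusted p = 0.227). It was also lost without TC71 mithramycin replicate 3, TC71 control replicate 1, TC32 mithramycin replicate 1, or TC32 control replicate 1 or 3 (adjusted p = 0.0521 to 0.0628).

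MYCL, first found in small cell lung cancer, had 2 dim sets and no called drug change. Set 215491_at changed by 0.06 in TC71 and 0.05 in TC32, and 214058_at by 0.08 and -0.23. Between the lines the brighter set, 215491_at, was not called, at -0.06 in control (adjusted p = 0.731) and -0.05 with mithramycin (adjusted p = 0.760). The set 214058_at was lower in TC71 than in TC32, by -0.68 ± 0.13 in control (adjusted p = 7.67e-04) and by -0.38 ± 0.13 with mithramycin (adjusted p = 0.0345). The call with mithramycin was lost without TC32 mithramycin replicate 1 or 3 and without TC71 mithramycin replicate 2 or 3 (adjusted p = 0.0538 to 0.144). A repeated quantile normalization, hybridization control centring (-0.11) and the beta-actin covariate ended it too (adjusted p = 0.0597 to 0.568). The call in control was lost with the beta-actin covariate (-0.43, adjusted p = 0.146).

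MAX, the obligate partner of MYC and of the MXD proteins, fell at its brightest set by less than MYC did. Set 209332_s_at read 8.73, 8.71 and 8.65 in TC71 with mithramycin, against 8.92, 9.09 and 8.93 in TC71 control. For TC32 the values were 8.33, 8.40 and 8.36 with mithramycin, against 8.69, 8.78 and 8.67 in control. Drug and control arrays were apart in both lines, with changes of -0.28 ± 0.07 in TC71 (adjusted p = 6.49e-03) and -0.35 ± 0.07 in TC32 (adjusted p = 1.22e-03). The other 4 MAX sets had no called change in either line, with values of -0.17 to 0.05 in TC71 and -0.16 to 0.14 in TC32. At 209332_s_at MAX stood higher in TC71 than in TC32, by 0.27 in control (adjusted p = 4.99e-03) and by 0.33 with mithramycin (adjusted p = 1.05e-03). The control call was lost under hybridization control centring (0.28, adjusted p = 0.0602).

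MLX fell at 2 bright sets in both lines and at another bright set in TC32. Set 213708_s_at read 7.85, 7.85 and 7.92 in TC71 with mithramycin, against 8.09, 8.12 and 8.15 in TC71 control. The same set in TC32 read 8.17, 8.11 and 8.19 with mithramycin, against 8.70, 8.68 and 8.67 in control. The groups did not overlap in either line, and the changes were -0.25 ± 0.06 in TC71 (adjusted p = 5.52e-03) and -0.52 ± 0.06 in TC32 (adjusted p = 9.86e-06).

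The set 217910_x_at of MLX fell too, by -0.33 ± 0.06 in TC71 (adjusted p = 1.48e-03) and -0.65 ± 0.06 in TC32 (adjusted p = 3.59e-06). The set 217909_s_at read 7.90, 7.92 and 7.81 in TC71 with mithramycin, against 7.59, 7.89 and 7.86 in TC71 control, and these groups overlapped. TC32 arrays stood at 8.27, 8.34 and 8.20 with mithramycin, against 8.48, 8.69 and 8.58 in control, with no overlap. Its change was 0.10 ± 0.09 in TC71 (adjusted p = 0.466) and -0.32 ± 0.09 in TC32 (adjusted p = 0.0130). The TC32 call was lost without TC32 mithramycin replicate 3 (-0.28, adjusted p = 0.0511) and without TC32 control replicate 2 (-0.26, adjusted p = 0.0570). The other 3 MLX sets were dimmer and had no called change. For the 3 bright sets the TC71 effect minus the TC32 effect was 0.28, 0.41 and 0.32, with adjusted p-values of 0.0598, 0.0709 and 0.0511, and none passed the test.

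MXD1, the antagonist that replaces MYC at MAX as cells differentiate, rose at 2 of its 3 sets. Set 228846_at read 4.67, 4.40 and 4.53 in TC71 with mithramycin, against 3.56, 3.83 and 3.50 in TC71 control. The TC32 signals were 3.55, 3.76 and 3.32 with mithramycin, against 2.90, 2.73 and 3.23 in control. Every drug array lay above every control array of its line, and the rise was 0.90 ± 0.14 in TC71 (adjusted p = 3.04e-04, 1.87-fold) and 0.59 ± 0.14 in TC32 (adjusted p = 5.11e-03, 1.51-fold). These signals lie near or below the array medians, where a log2 change is less certain in size.

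The brighter MXD1 set, 226275_at, read 5.34, 5.15 and 5.24 in TC71 with mithramycin, against 4.97, 4.86 and 4.85 in TC71 control. TC32 cells read 4.75, 5.05 and 4.41 with mithramycin, against 4.16, 3.89 and 4.12 in control. The groups were apart in both lines, but the change was called in TC32 (0.68 ± 0.13, adjusted p = 1.30e-03) and not in TC71 (0.35 ± 0.13, adjusted p = 0.0651). The difference between those effects was -0.33, with a 95% interval of -0.73 to 0.08 and an adjusted p of 0.395. The TC71 change at 226275_at ranged from 0.15 to 0.46 over 21 alternatives. It was called in 6 of them, TC71 fitted alone included (adjusted p = 7.10e-03), and not in 15. The third set, 206877_at, changed by 0.30 in TC71 (adjusted p = 0.0927) and 0.03 in TC32 (adjusted p = 0.859).

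MXD3, an antagonist that is expressed in proliferating cells, rose in both lines. Its set 221250_s_at read 6.98, 7.08 and 6.98 in TC71 with mithramycin, against 6.67, 6.66 and 6.73 in TC71 control. Readings in TC32 were 7.57, 7.47 and 7.64 with mithramycin, against 6.97, 6.95 and 6.91 in control. The rise was 0.33 ± 0.06 in TC71 (adjusted p = 1.76e-03, 1.25-fold) and 0.62 ± 0.06 in TC32 (adjusted p = 6.04e-06, 1.54-fold), with no overlap. In TC71 the rise was not called when arrays were centred on housekeeping genes, at 0.13 with an adjusted p of 0.264. The TC71 effect minus the TC32 effect was -0.30, with a 95% interval of -0.49 to -0.10 and an adjusted p of 0.0766.

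MXI1, a bright antagonist gene, had no called drug change in either line. Its set 202364_at read 9.13, 9.09 and 9.08 in TC71 with mithramycin, against 9.22, 9.30 and 9.26 in TC71 control. In the TC32 line it stood at 7.53, 7.40 and 7.46 with mithramycin, against 7.52, 7.57 and 7.56 in control. The changes were -0.16 ± 0.06 in TC71 (adjusted p = 0.0747) and -0.09 ± 0.06 in TC32 (adjusted p = 0.291). The TC71 groups did not overlap, the TC32 groups did, and the TC71 change passed the test in 6 of the alternative analyses. The mean of both effects was -0.12 (adjusted p = 0.0345), a call that was lost in 11 of 21 alternatives.

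MNT, the broadly expressed antagonist that also pairs with MLX, gave opposite answers at its 2 sets. The brighter set, 204206_at, read 7.93, 7.90 and 7.98 in TC71 with mithramycin, against 8.21, 8.14 and 8.17 in TC71 control. The set's TC32 values were 8.06, 8.07 and 7.93 with mithramycin, against 8.42, 8.35 and 8.47 in control. It fell without overlap, by -0.24 ± 0.06 in TC71 (adjusted p = 0.0129) and -0.39 ± 0.06 in TC32 (adjusted p = 3.16e-04). The TC71 call was lost without TC71 mithramycin replicate 2 (-0.22, adjusted p = 0.0514).

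The dimmer MNT set, 236749_at, read 5.31, 5.14 and 5.38 in TC71 with mithramycin, against 4.87, 4.97 and 4.94 in TC71 control. It rose there by 0.35 ± 0.11 (adjusted p = 0.0252) and changed by 0.12 ± 0.11 in TC32 (adjusted p = 0.404). The TC71 call was lost without either of TC71 mithramycin replicates 1 and 3 and without either of TC71 control replicates 1 and 3, at 0.30 to 0.36 and adjusted p-values of 0.0562 to 0.0978, and under housekeeping centring (0.15, adjusted p = 0.328). Which transcripts the 2 sets detect is not given in the sources used here, so a net direction for MNT was not drawn.

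Centring sets what a fold change is relative to, and it touched the small changes in TC71. Centring on spiked hybridization controls moved the median of all sets to 0.17 in TC71 and -0.07 in TC32, and centring on housekeeping genes moved it to -0.15 and -0.03. With the first, the falls in TC71 were no longer called for MAX 209332_s_at (-0.17), MLX 213708_s_at (-0.13), MLX 217910_x_at (-0.22) and MNT 204206_at (-0.13), all with the same sign. MYC fell in both lines under each of the 22 alternatives, between -0.82 and -0.51 in TC71 and between -0.98 and -0.84 in TC32.

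RNA quality, read from beta-actin, differed between the lines and within TC71. The 3′ minus 5′ signal of beta-actin, which grows as RNA degrades, averaged 0.88 ± 0.10 in TC71 with mithramycin and 1.45 ± 0.48 in TC71 control (SD, n = 3 each), where replicate 1 was the highest. It averaged 0.60 ± 0.08 in TC32 with mithramycin and 0.71 ± 0.04 in TC32 control. Without TC71 control replicate 1, the TC71 changes were -0.67 for MYC, -0.31 for MAX 209332_s_at, -0.26 and -0.32 for MLX 213708_s_at and 217910_x_at, 0.87 for MXD1 228846_at and 0.32 for MXD3, all still called. With beta-actin as a covariate, both MNT calls in TC71 were lost (adjusted p = 0.179 and 0.155).

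The lines differed in the network before any drug. In control cells 42.6% of all probe sets differed between TC71 and TC32, and 7 network sets were higher in TC71 and 10 lower, beside 20.7% and 21.9% of all sets. With mithramycin 43% of all sets differed, 20.6% higher and 22.4% lower, and 6 network sets were higher and 8 lower, or 11 higher and 2 lower when centred on hybridization controls. MXI1 had the largest difference toward TC71, at 1.71 ± 0.06 in control (adjusted p = 6.59e-11, 3.26-fold) and 1.64 ± 0.06 with mithramycin (adjusted p = 1.18e-10, 3.11-fold). MYC and MXI1, an activator and an antagonist, were thus both higher in TC71.

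Among the other antagonists, MXD1 was higher in TC71 than in TC32 at 226275_at (0.83 ± 0.13 in control, adjusted p = 1.41e-04) and 228846_at (0.68 ± 0.14, adjusted p = 1.35e-03). MXD3 was lower in TC71, by -0.25 ± 0.06 in control (adjusted p = 5.63e-03) and by -0.55 ± 0.06 with mithramycin (adjusted p = 9.43e-06). MNT 204206_at was lower in TC71 control by -0.24 ± 0.06 (adjusted p = 7.53e-03), while with mithramycin the difference was -0.08 ± 0.06 (adjusted p = 0.319). All 6 MLX sets were lower in TC71 control, by -0.81 to -0.34, and 5 of them were lower with mithramycin. Of these sets, 231401_s_at lost its call in control without TC32 control replicate 1 or 3 or TC71 control replicate 1 (adjusted p = 0.0577 to 0.0817). Those 5 were not called under hybridization control centring, where 213708_s_at stood at -0.01. Of the line differences in control, those of MXD3 and MNT 204206_at did not pass under either centring or with the beta-actin covariate. The covariate also ended the control calls of MLX 231401_s_at (-0.14), MLX 1570347_at, MYCL 214058_at and MAX 214108_at (adjusted p = 0.0501 to 0.598). Hybridization control centring also ended those of MAX 209332_s_at, MAX 209331_s_at and MLX 231401_s_at (adjusted p = 0.0602 to 0.0772).

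**Figure D3:**
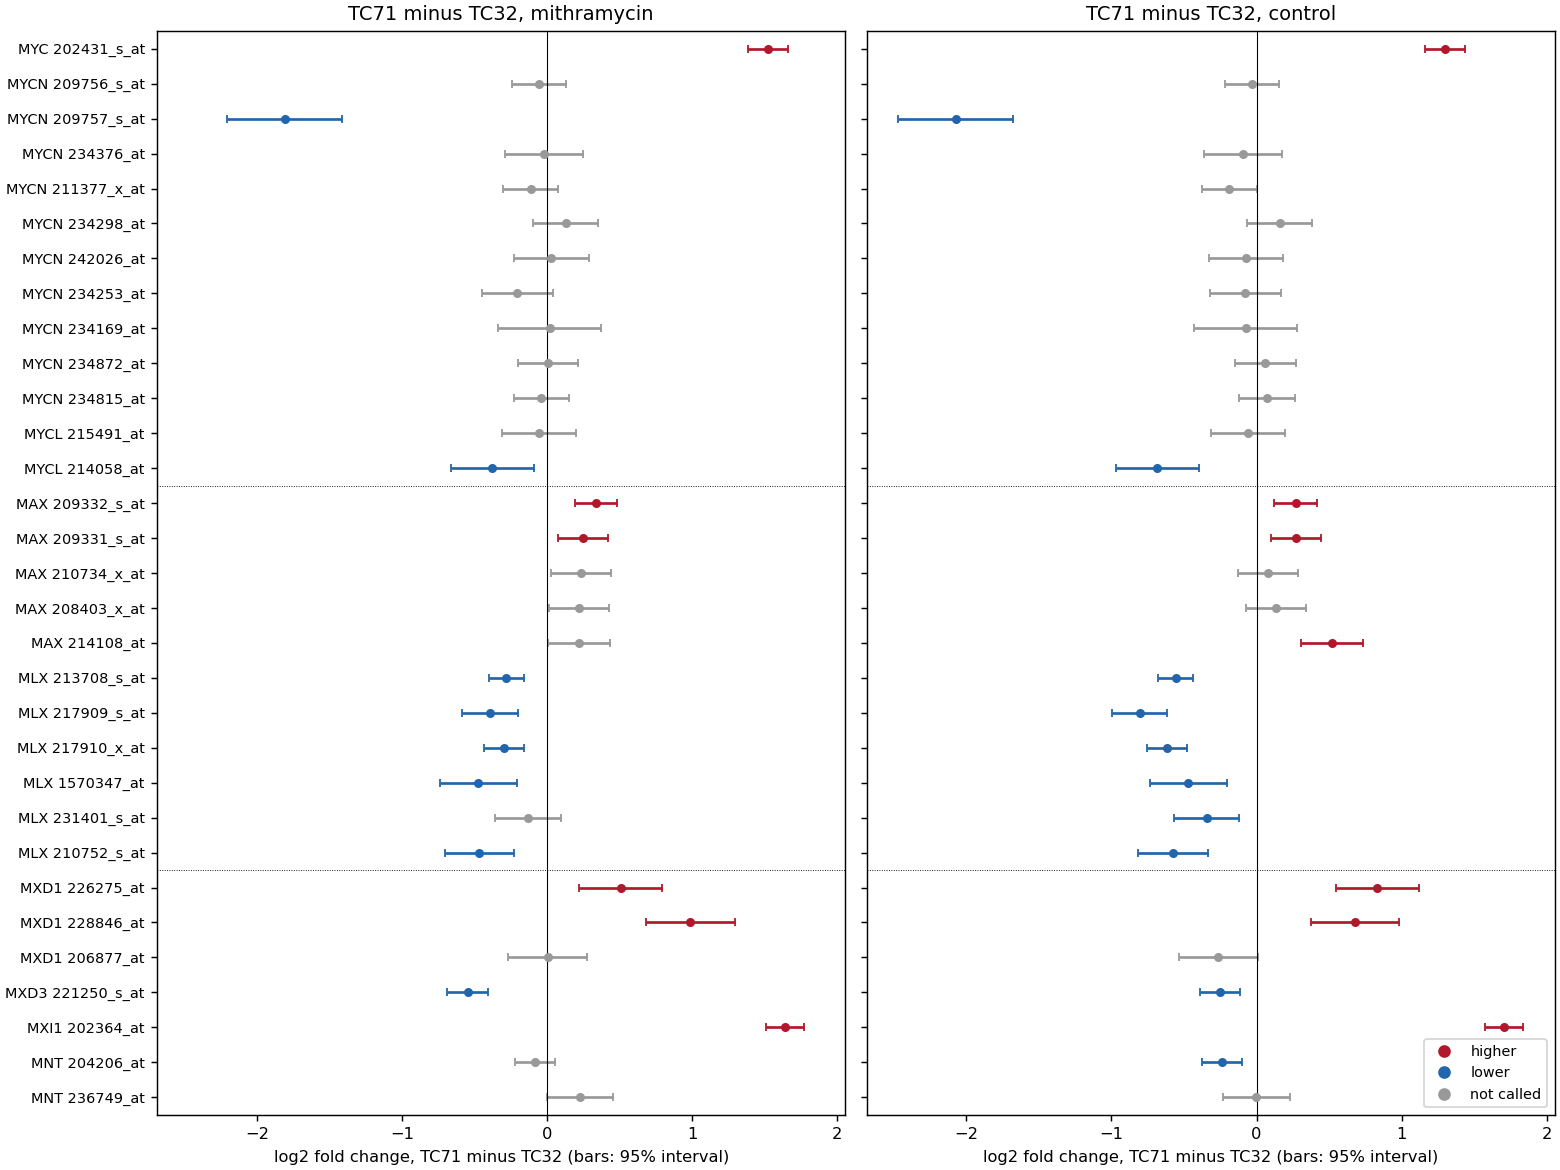
Differences between the lines at the 31 network probe sets, with mithramycin (left) and in control (right). Points are log2 values, TC71 minus TC32, bars are 95% intervals, and colours mark sets that were higher (red), lower (blue) or not called (grey). MYC and MXI1 lie to the right and MYCN 209757_s_at to the left in both panels, while the MLX sets lie to the left.

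No network set passed the test of a different drug effect in the lines, where 6.86% of all sets did. The test was limma's interaction, and 5 sets had an unadjusted p under 0.05: MYC, MXD3 and 3 sets of MLX. Of 21 alternative analyses of the same contrast, 14 called 0 network sets and 7 called 1 to 5. MXD3 was called in 5 of the 21, MLX 213708_s_at in 4 and MYC in 2.

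The genes most like each member were taken by Pearson correlation over the 12 arrays, within genes whose mean signal reached 6. For MYC they were PIK3C3, a lipid kinase of autophagy, IRS2, a docking protein for the insulin receptor, and VAPA, a membrane contact protein, each at 0.997. PIK3C3 changed by -0.38 in TC71 and -0.51 in TC32, IRS2 by -0.70 and -0.92, and VAPA by -0.24 and -0.35. All 3 were also higher in TC71 control than in TC32 control, by 0.80, 1.58 and 0.44. For MAX the closest was CEP112 at 0.990, for MLX HJURP, the chaperone of the centromeric histone, at 0.994, and for MNT TENT4A at 0.979. For MXD3 it was IL17RA at 0.989, for MXD1 SPNS1 at 0.969 and for MXI1 DRC9 at 0.999. MYCN and MYCL reached only 0.881 (ATG9A) and 0.774 (RPL27A). The 12 arrays share 2 lines and 2 treatments, so these values mostly describe 4 group means.

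Genes around the network were read at 1 probe set per gene, the brightest, with p-values adjusted over the 19775 genes. For the mean of both lines' effects 53.8% of all genes were called, 32.9% higher and 20.9% lower, with a median of 0.08. Per line 35.5% were called in TC71 (19.4% higher, 16.1% lower) and 45% in TC32 (25.6% higher, 19.4% lower). The drug effect differed between the lines for 9.99% of genes. The lists were drawn from general knowledge with earlier results of these data known, and their counts are descriptions.

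Averaged over both lines, 1 of the 4 further partners rose and 2 fell, and the rise was lost under both centrings and a repeated quantile normalization. MGA, a large repressor that binds MAX, fell by -1.05 ± 0.06 in TC71 (adjusted p = 1.12e-07) and -1.08 ± 0.06 in TC32 (adjusted p = 5.67e-08), while 1 of its 4 sets stood at -0.06 in the mean of both. MLXIP, the glucose sensor MondoA, fell by -0.30 ± 0.06 in TC71 (adjusted p = 2.86e-03) and -0.46 ± 0.06 in TC32 (adjusted p = 9.62e-05), while 1 of its 4 sets stood at 0.28 in the mean of both. Averaged over its sets, MLXIP was not called in TC71 (-0.11, adjusted p = 0.154) or TC32 (-0.07, adjusted p = 0.370), nor in TC71 under hybridization control centring (-0.19, adjusted p = 0.122). MLXIPL rose by 0.22 in the mean of both (adjusted p = 0.0432), without a call in either line. It was called in TC71 without TC32 mithramycin replicate 1 (0.22) and in TC32 without TC32 mithramycin replicate 2 (0.33). ZBTB17 (MIZ1), through which MYC represses genes, changed by -0.07 in TC71 and -0.09 in TC32, neither called. Under housekeeping centring its TC71 change was called (-0.27, adjusted p = 0.0125).

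Among 13 measured coactivators of MYC, 2 rose and 7 fell. The acetyltransferase CREBBP fell by -1.95 ± 0.11 in TC71 (adjusted p = 8.80e-08) and -2.14 ± 0.11 in TC32 (adjusted p = 2.94e-08), with 1 of its 4 sets at 0.15 in the mean of both. TRRAP, the scaffold of acetyltransferase complexes that MYC binds, fell by -1.05 ± 0.07 in TC71 and -0.97 ± 0.07 in TC32, and the acetyltransferase EP300 by -0.81 ± 0.06 and -0.93 ± 0.06. KAT2A (GCN5) rose by 0.43 ± 0.06 in TC71 and 0.46 ± 0.06 in TC32. CDK9, the kinase that releases paused polymerase, rose by 0.40 ± 0.07 and 0.26 ± 0.07, without a call in either line when centred on housekeeping genes, nor in TC32 on hybridization controls (0.12, adjusted p = 0.446).

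Among 10 measured corepressor genes, 4 rose and 4 fell, or 1 rose and 5 fell when centred on housekeeping genes. SIN3A, the scaffold that MXD proteins bind, fell by -1.02 ± 0.08 in TC71 (adjusted p = 1.30e-06) and -1.42 ± 0.08 in TC32 (adjusted p = 5.70e-08), with 1 of its 4 sets at 0.07 in the mean of both. SIN3B fell by -0.34 ± 0.09 in TC71 and -0.59 ± 0.09 in TC32, but in TC71 not under hybridization control centring (-0.22, adjusted p = 0.135). SAP30 fell by -0.46 ± 0.06 and -0.67 ± 0.06 at its brightest set, while another set gave 0.17 and 0.11. SAP18 rose by 0.20 ± 0.05 in TC71 and 0.40 ± 0.05 in TC32, and by 0.00 in TC71 when centred on housekeeping genes.

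Of 16 measured genes that act on MYC mRNA or protein, 2 rose and 7 fell. GSK3B, the kinase that marks MYC protein for degradation, fell by -1.20 ± 0.08 in TC71 (adjusted p = 3.57e-07) and -1.22 ± 0.08 in TC32 (adjusted p = 2.24e-07), with 1 of its 5 sets at 0.09 in the mean of both. AURKA, a mitotic kinase that stabilizes MYCN protein, fell by -0.38 ± 0.05 in TC71 and -0.80 ± 0.05 in TC32. Without sets ending _x_at or _s_at its TC71 value was -0.19 (adjusted p = 0.402). USP36, a nucleolar deubiquitinase that acts on MYC, fell by -0.34 ± 0.06 and -0.74 ± 0.06, with 1 of its 5 sets at 0.15 in the mean of both. Its TC71 call was lost under hybridization control centring (-0.23, adjusted p = 0.0790). ZFP36, which destabilizes mRNAs with AU-rich elements, rose by 0.58 ± 0.09 in TC71 and 0.48 ± 0.09 in TC32. FUBP1, which binds upstream of MYC, rose by 0.60 ± 0.07 and 0.32 ± 0.07 at its brightest set. In TC32 another set gave -0.14, and the call was lost in the mean of its sets (0.10, adjusted p = 0.107) and under hybridization control centring (0.18, adjusted p = 0.206). FBXW7, the ubiquitin ligase for MYC, changed by 0.08 in TC71 and -0.16 in TC32, and PVT1, the neighbour of MYC, by -0.06 in each, with no call. In TC32 FBXW7 was called lower under housekeeping centring (-0.25, adjusted p = 0.0357) and hybridization control centring (-0.30, adjusted p = 0.0481). The same held without TC32 mithramycin replicate 2 (-0.27, adjusted p = 2.83e-03). In TC71 the mean of the FBXW7 sets was called higher (0.18, adjusted p = 0.0405).

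The genes that MYC is known to activate were called in both directions while MYC itself fell. Of 36 measured, 8 rose and 9 fell on average over both lines, and their median was 0.02 beside 0.08 over all genes. In TC71 6 rose and 6 fell, and in TC32 6 rose and 8 fell. The split hung on the centring: the mean of both effects gave 0 risen and 18 fallen with housekeeping genes, 3 and 8 with hybridization controls, and 6 and 11 after a repeated quantile normalization. SRM, the spermidine synthase, rose by 0.27 ± 0.06 in TC71 and 0.25 ± 0.06 in TC32, and NOLC1, a nucleolar protein, by 0.27 ± 0.05 and 0.25 ± 0.05. SHMT2, a mitochondrial enzyme of one-carbon metabolism, rose by 0.20 ± 0.05 and 0.24 ± 0.05. When centred on housekeeping genes, none of these 3 was called in either line and SHMT2 stood at -0.01 in TC71. Hybridization control centring also ended their TC32 calls, at 0.11 for SRM, 0.11 for NOLC1 and 0.10 for SHMT2 (adjusted p = 0.453 to 0.541).

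Among the activated targets that fell, WDR43, a ribosome biogenesis factor, changed by -0.60 ± 0.09 in TC71 (adjusted p = 2.02e-04) and -0.93 ± 0.09 in TC32 (adjusted p = 3.98e-06). CDC25A, a phosphatase that starts the cell cycle, fell by -0.23 ± 0.06 in TC71 and -0.59 ± 0.06 in TC32. Hybridization control centring put its TC71 value at -0.12 (adjusted p = 0.301). POLR1B, a subunit of RNA polymerase I, fell by -0.34 ± 0.07 and -0.77 ± 0.07 at its brightest set, while another set rose, by 0.27 in TC71 and 0.24 in TC32. The TC71 fall of that brightest set was lost under hybridization control centring (-0.23, adjusted p = 0.0738). ODC1, the classical MYC target of polyamine synthesis, changed by 0.20 ± 0.05 in TC71 (adjusted p = 0.0101) and 0.05 ± 0.05 in TC32 (adjusted p = 0.430), and its TC71 value was at 0.00 when centred on housekeeping genes.

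The genes that MYC is known to repress were called higher more often than lower, as were all genes. Of 23 measured, 13 rose and 3 fell on average over both lines (56.5% and 13%, beside 32.9% and 20.9% of all genes), with a median of 0.20. Without sets ending _x_at or _s_at, 7 of 17 rose and 1 fell. Centred on housekeeping genes, 9 rose and 6 fell. In TC71 14 rose and 2 fell (60.9% and 8.7%, beside 19.4% and 16.1% of all genes), with a median of 0.34. In TC32 8 rose and 4 fell (34.8% and 17.4%), near the 25.6% and 19.4% of all genes, and the median of 0.07 lay below the 0.08 of all genes. CDKN1A, the cell cycle inhibitor p21, rose by 0.48 ± 0.06 in TC71 and 0.88 ± 0.06 in TC32. GADD45B, a stress-induced growth arrest gene, rose by 1.41 ± 0.09 in TC71 (adjusted p = 2.10e-07) and 1.08 ± 0.09 in TC32 (adjusted p = 1.43e-06). GAS1, a growth arrest gene, went the other way at its brightest set, by -1.05 ± 0.08 and -1.55 ± 0.08, while another set gave 0.09 and 0.04. KLF6 fell by -0.23 ± 0.06 in TC71 and -0.17 ± 0.06 in TC32 at its brightest set, against 0.04 and 0.01 at another, and its TC32 call was lost without TC32 mithramycin replicate 1 or 3 and without TC32 control replicate 1 or 2 (adjusted p = 0.0581 to 0.102). Hybridization control centring ended its TC71 call (-0.11, adjusted p = 0.324). Many genes of this list respond to other factors as well, such as p53.

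MLX with MLXIP is known to drive TXNIP, ARRDC3 and other genes of glucose handling. Of 7 measured targets 4 rose and 2 fell, or 2 and 2 under either centring. TXNIP, an inhibitor of glucose uptake, rose by 0.75 ± 0.05 in TC71 (adjusted p = 5.67e-07) and 0.57 ± 0.05 in TC32 (adjusted p = 4.22e-06). ARRDC3, a related arrestin, rose by 0.51 ± 0.11 in TC71 and 0.38 ± 0.11 in TC32, and its TC32 call was lost without TC32 control replicate 1 (adjusted p = 0.0529), under housekeeping centring (0.29, adjusted p = 0.0652) and under hybridization control centring (0.24, adjusted p = 0.154). PFKFB3, a regulator of glycolysis, fell by -1.68 ± 0.06 in TC71 (adjusted p = 1.43e-09) and -2.15 ± 0.06 in TC32 (adjusted p = 4.52e-10). HK2, which phosphorylates glucose, fell by -0.75 ± 0.08 and -0.89 ± 0.08.

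**Figure D4:**
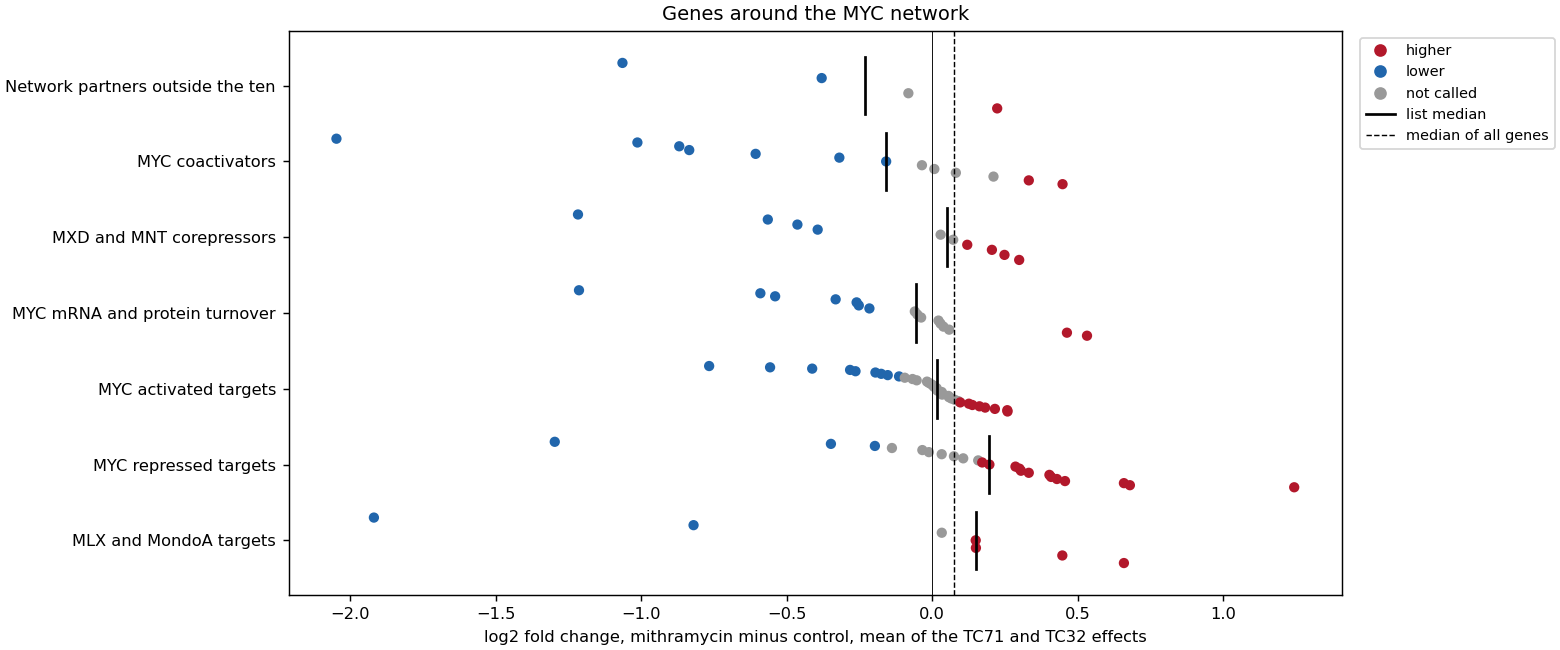
Genes around the network, by list. Each point is a gene at its brightest probe set, placed at the mean of the TC71 and TC32 log2 effects of mithramycin; red genes rose, blue genes fell, grey genes were not called, thick bars are list medians and the dashed line is the median of all genes (0.08). The points of the activated targets lie on both sides of 0, and 13 of the 23 repressed targets rose.

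Arrays of a group correlated at 0.9948 or higher over the probe sets. Of 11 measured Ewing sarcoma genes, 10 lay above the array median on every array. In the mean of both effects 7 fell with the drug, where 20.9% of all genes fell. NKX2-2, among the 7, fell by -0.64 in TC32 but rose by 0.17 in TC71 (adjusted p = 0.0395). Of 6 measured blood genes, 4 lay below the median on every array (PTPRC, CD3E, CD14 and LYZ). HBB lay above it on every array and ITGAM on 7 of the 12. Of 7 epithelial genes, 4 lay below it on every array, and KRT8, KRT18 and MUC1 lay above it on every array. Of 7 fibroblast genes, 3 lay above it on every array. In the mean of both effects 3 of 7 epithelial, 3 of 7 fibroblast and 1 of 6 blood genes rose and 0 fell, beside 32.9% of all genes that rose. Their part in the values above was not tested.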

How the data were processed

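The authors deposited log2 signals, 1 for each of the probe sets on every array, and RMA, the robust multi-array average, is the tool named per the submitters' processing notes. Its version is not given in the sources used here, nor are its settings. In general RMA corrects background, equalizes the arrays by quantile normalization and summarizes probes on a log2 scale, so changes are relative to the other genes. The table had 0 missing values and no detection calls, so signals near or below the array medians are uncertain. The number of arrays limits the precision.

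From these values, 62 control sets were left out and 54613 sets entered 1 fit with a mean for each of the 4 groups, with limma 3.58.1 (lmFit and eBayes) in R 4.3.3 on 8 residual degrees of freedom. P-values are two-sided and Benjamini-Hochberg adjusted, with calls under 0.05. Errors are standard errors of the model and intervals are at 95%. Where nothing tells how separate the biological replicates were, p-values measure the spread between these samples. Genes outside the network were read at the set with the highest mean, adjusted over 19775 genes. Symbols come from the platform annotation, updated through a RefSeq table of GRCh38.p14, and 41091 sets had 1 symbol. The lists hold genes of each heading, counted per direction with no set test.

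The members and lists were chosen with earlier results of these data known. All members were named, and from each list up to 3 genes that rose and 3 that fell furthest among those called in the same direction in both lines, plus MLXIP, MLXIPL, MGA, ZBTB17, TXNIP, ODC1, CDKN1A, FBXW7 and PVT1. No pairing by replicate number entered the fit. The fit was tested on simulated data. Alternatives were a repeated quantile normalization, 2 centrings (8 housekeeping genes, 11 hybridization control sets), a mean of at least 6, each line alone, trended and robust variance, array weights, a beta-actin covariate, the replicate block, 1 set per gene, for lists the mean of a gene's sets or no sets ending _x_at or _s_at, and leaving out each array.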

Additional observations from a re-analysis of the deposited data

Results flagged for a closer look

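The drug effect differed between the lines, by limma's interaction over 19775 genes, for 16 of the 108 listed genes tested (14.8%), where 9.99% of all genes were called. Each value is the TC71 effect minus the TC32 effect, on the log2 scale and with the standard error of the model. The genes KAT5, GADD45A, CEBPA, CEBPD, COL3A1, ITGA6, SESN1 and ID2 fall outside the naming rule and were picked because this test called them.

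Several genes that fell in both lines fell less in TC71. KAT5, the acetyltransferase TIP60, changed by -0.30 in TC71 and -0.92 in TC32, a difference of 0.62 ± 0.12 (adjusted p = 6.61e-03). The TC71 fall of KAT5 was lost without TC71 mithramycin replicate 2 or 3 and without TC71 control replicate 1 or 3 (adjusted p = 0.0543 to 0.0777). SIN3A differed by 0.40 ± 0.12 (adjusted p = 0.0472), USP36 by 0.39 ± 0.09 (adjusted p = 0.0135) and AURKA by 0.42 ± 0.07 (adjusted p = 2.07e-03). Of the activated targets, POLR1B differed by 0.43 ± 0.09 (adjusted p = 0.0119) and CDC25A by 0.36 ± 0.08 (adjusted p = 0.0128). PFKFB3 differed by 0.47 ± 0.08 (adjusted p = 2.56e-03) and GAS1 by 0.50 ± 0.11 (adjusted p = 0.0138).

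The repressed targets held 9 of the 16, out of 23 measured. GADD45A, a growth arrest gene, rose by 0.70 ± 0.05 in TC71 and changed by -0.09 ± 0.05 in TC32, a difference of 0.78 ± 0.07 (adjusted p = 5.41e-05). ID2, which blocks DNA binding by helix-loop-helix proteins, rose by 0.43 ± 0.06 in TC71 and fell by -0.28 ± 0.06 in TC32, a difference of 0.70 ± 0.09 (adjusted p = 3.20e-04). CEBPA, a factor of myeloid and liver differentiation, changed by 0.78 in TC71 and 0.08 in TC32 (difference 0.69 ± 0.11, adjusted p = 2.00e-03), and its relative CEBPD by 0.68 and 0.24 (difference 0.44 ± 0.11, adjusted p = 0.0264). ITGA6, an integrin with dim signal here, changed by 0.15 and -0.84 (difference 0.99 ± 0.16, adjusted p = 2.32e-03). SESN1 changed by 0.42 and -0.10 (difference 0.53 ± 0.15, adjusted p = 0.0439). COL3A1, a collagen that also stands on the fibroblast list, changed by 0.34 and 0.01 (difference 0.33 ± 0.09, adjusted p = 0.0350). CDKN1A ran the other way, with the larger rise in TC32 (difference -0.40 ± 0.09, adjusted p = 0.0133). The interaction was lost in 14 of 19 alternatives for SIN3A, 12 of 19 for COL3A1, 12 of 18 for SESN1 and 10 of 19 for CEBPD. GAS1 lost it in 4 of 19 and POLR1B in 3 of 19, and without sets ending _x_at or _s_at their differences were 0.05 (adjusted p = 0.937) and 0.03 (adjusted p = 0.909). AURKA, USP36 and CDC25A each lost it in 2 of 19, and housekeeping centring was among these for all 3. CDKN1A, ITGA6 and PFKFB3 each lost it in 1 of 18, for CDKN1A under hybridization control centring (-0.15, adjusted p = 0.421). It was kept in all 18 or 19 for KAT5, GADD45A, CEBPA and ID2.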

How the results depend on the processing

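Over 86 member results and 1760 alternative values, 1634 stayed on the same side of the threshold, 100 lost a call and 26 gained one. The sign turned in 38 of the 1634, none of them called in either analysis. With 1 probe set per gene 6 members were called in TC32, 8 in the mean of both effects, 7 between control cells of the lines and 6 between drug-treated cells, and with a mean of at least 6 there were 8, 9 and 9 for the mean, controls and drug-treated cells, in that order. With each line fitted alone 13 sets were called in TC71. The interaction gave 3 sets with hybridization control centring, 5 with a mean of at least 6, 5 with trended and robust variance, 2 with array weights and 2 with 1 set per gene; the cause was not tested. Leaving out 1 array gave 9 to 12 sets in TC32, 7 to 11 in TC71, 12 to 15 in the mean, 0 to 1 in the interaction, 16 to 18 between controls and 12 to 15 between drug-treated cells. The replicate block gave 9 sets in TC32, 8 in TC71, 14 in the mean and 0 in the interaction, and MYCN 209757_s_at in TC32 then had an adjusted p of 0.0540. Deviations of same-numbered samples from their group means correlated at -0.09 to 0.21 over 6 pairs, with 1 above 0.1. Not every sample correlated best with its own number. With 3 arrays per group these values cannot tell whether same-numbered samples were handled together. Without sets ending _x_at or _s_at, 5 corepressors, 8 repressed targets and 3 MLX targets were called, and the brightest remaining set gave, in TC71, 0.17 for SAP30, 0.27 for POLR1B, 0.0901 for GAS1 and 0.0447 for KLF6. In TC32 it gave 0.11 for SAP30, -0.14 for FUBP1, 0.24 for POLR1B, 0.0391 for GAS1, 0.00531 for KLF6 and -0.93 for COL3A1. Hybridization control centring called 11 activated targets, and housekeeping centring put SHMT2 at -0.00523 and ODC1 at -0.00223 in TC71. Log2 signals near the array medians limit MYCN, MYCL and MXD1.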
